A study of Mus musculus with 50 samples.

Results

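Spink1, Gp2, Plat and Corin are 4 genes that were picked because their signal was higher in mouse airway samples with Stat6 in the epithelium than in samples without it, out of 13409 named genes on the larger of 2 array platforms and 13509 on the smaller one. All 4 have 1 probe of 1 spot on each platform. The choice was made from the values of these arrays, so every comparison of these 4 genes with Stat6-/- samples is a description of how they were picked and carries no test; adjusted p-values for those comparisons are given only for other genes. The reply to ovalbumin was not used to pick them and was tested.

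Spink1 encodes a small secreted inhibitor of trypsin that acinar cells of the pancreas release with their enzymes. Gp2 encodes a glycoprotein with a zona pellucida domain that is held on the apical membrane by a lipid anchor, and it is known from pancreatic granules and from M cells over lymphoid tissue, where it binds bacteria. Plat encodes tissue plasminogen activator, the protease that turns plasminogen into plasmin. Corin encodes a transmembrane serine protease that cuts the precursor of atrial natriuretic peptide in the heart. Interleukin-13 (IL-13), a cytokine of T helper type 2 cells, signals through the transcription factor Stat6, and in airway epithelium this pathway is known for mucous cell change and airway hyperreactivity.

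RNA from tracheal perfusate (here perfusate) and from whole lung was hybridised to 2-colour spotted arrays, each against a reference RNA. Each tissue had 5 groups of 5 arrays, 50 arrays in all: IL-13 with Stat6+/-, IL-13 with Stat6-/-, IL-13 with Stat6-/-Epi+ (the Epi+ group), ovalbumin (OVA) and phosphate-buffered saline (PBS). Epi+ stands in the labels without further words; mice of this kind are known to carry a transgene that restores Stat6 in airway epithelium alone. All 3 Stat6 groups carry IL-13 in their labels, so none of them is a control without it, and no IL-13 group of Stat6+/+ mice or Stat6-/- group without IL-13 was analysed here. The labels do not say whether IL-13 was given as a protein or made by the mice from a gene, nor the dose, route and timing of ovalbumin. They give no genotype for the OVA and PBS mice and no strain, age or sex for any group, and no label says that arrays of 1 group came from separate animals, so the p-values measure the spread between arrays, which may be technical. Perfusate RNA was amplified once for 22 of 25 arrays per the labels, with nothing stated for the other 3 (Epi+ replicate 16, PBS replicate 22 and OVA replicate 28), and lung RNA was not amplified.

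Values below are log2 ratios of sample to reference after each array's own median was set to 0, so a value of 1 is a 2-fold higher ratio than that of the median spot. The direction, sample over reference, is likely rather than stated. Il13 itself averaged 1.77 to 2.76 in the 3 perfusate IL-13 groups, against -0.19 and 0.04 in perfusate OVA and PBS. In the 3 lung IL-13 groups it averaged 5.18 to 5.54. Lung OVA and PBS arrays, on the smaller platform with another reference pool, had Il13 at 0.68 to 2.57 and 0.30 to 0.74. Il13 was 0.99 lower in Stat6+/- than in Stat6-/- perfusate on the log2 scale, at 1.77 against 2.76 (limma, adjusted p = 0.0120). That call was lost under 5 of 20 alternatives, with an adjusted p of 0.226 without the Stat6-/- arrays of low Y-linked signal described below, 0.143 on deposited values without centring, 0.0994 with only the 2 groups, 0.0635 without reference preparation 1.3 and 0.0542 with scaling. The Stat6 probe did not separate the genotypes, with a Stat6+/- minus Stat6-/- difference of -0.10 in perfusate and -0.19 in lung. The arrays do not show whether that probe lies in the deleted part of the gene, so it checks nothing about the genotype labels. Arrays held values for 15693 to 18655 spots, and their number, not a read depth, limits the precision. A log ratio gives no absolute level, so the genes cannot be ranked against each other, values of the 2 tissues rest on different references, and the presence of a cell type cannot be read from its markers. Y-linked Eif2s3y (probe NM_012011) was low in 3 of 5 perfusate Stat6-/- arrays, at -3.45 to -1.93 against -0.00 to 1.34 in the other 22, and in lung Stat6-/- replicates 1 and 2, at -3.06 and -3.16 against -0.71 to 0.01 in the other 13 IL-13 arrays. On those 3 perfusate arrays Y-linked Uty was at -2.10 to -0.93, which overlapped its range of -0.98 to 0.96 in the other 22. X-linked Xist was at -0.33 to 0.91 on them, against -5.70 to -1.36 in the other 22. A second Eif2s3y probe (AK012186), at 0.03 to 0.52, and Y-linked Kdm5d, at -0.03 to 0.25, were not low. In lung Xist was 7.35 on Stat6-/- replicate 1, with no value on replicate 2. The labels give no sex, so on these 5 arrays the Stat6 genotype and the sex of the mouse cannot be told apart. Calls that were lost without these arrays are named as such. In lung OVA replicates 5 and 2 the first Eif2s3y probe was at -2.25 and -2.04, and in PBS replicate 5 at -1.41. It was at -0.87 to 0.58 in the other lung OVA and PBS arrays. The second Eif2s3y probe was at -3.25, 1.69 and 0.13 on these arrays in that order. Xist was at 2.94 on OVA replicate 5 and 1.42 on PBS replicate 5, with no value on OVA replicate 2. The part of sex in the OVA values was not tested. In bulk RNA fewer cells of a type and less RNA per cell cannot be told apart.

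The RefSeq gene positions (GRCm38.p6) are chr7:119442537-119459272 for Gp2, chr8:22757722-22782848 for Plat and chr5:72299948-72504540 for Corin. Gp2 lies next to Umod, the gene of a related zona pellucida domain protein, at chr7:119462708-119479262. The 250 bases upstream of the start are printed for 2 members, Gp2 and Corin, and not for Spink1 or Plat. They lie at chr7:119459273-119459522 for Gp2 and chr5:72504541-72504790 for Corin, both on the minus strand. Both are read 5′ to 3′ in the direction of the gene, with capitals for a TATAAA match.
Gp2: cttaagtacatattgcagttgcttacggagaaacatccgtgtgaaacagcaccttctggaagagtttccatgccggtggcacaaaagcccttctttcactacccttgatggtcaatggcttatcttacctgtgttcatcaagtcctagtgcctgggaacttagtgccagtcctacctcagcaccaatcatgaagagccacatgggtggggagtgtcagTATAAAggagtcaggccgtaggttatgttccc
Corin: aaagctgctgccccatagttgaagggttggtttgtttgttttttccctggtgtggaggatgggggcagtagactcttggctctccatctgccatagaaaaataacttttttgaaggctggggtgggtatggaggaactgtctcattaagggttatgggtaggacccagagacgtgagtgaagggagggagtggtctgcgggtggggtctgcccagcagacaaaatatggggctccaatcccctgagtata
The spacing that Stat6 is known to prefer, TTCNNNNGAA, had 0 matches on either strand in both windows, and 5.89% of 32536 mouse promoter windows of this length held it. The shorter form TTCNNNGAA also had 0 matches in both, against 7.04% of windows. TATAAA occurred once in Gp2, with its first base at -32, and not in Corin, and 12.3% of windows held it. CCCNCCC had 3 matches in Corin and 1 in Gp2, and 45.0% of windows held it. No match overlapped another motif. These are letter matches in 1 window per gene, and they say nothing about binding.

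In tracheal perfusate, Spink1 (chr18:43728069-43737237 in the same build) was the member with the widest separation. The Stat6+/- arrays gave 3.49, 3.93, 3.79, 2.52 and 4.05 (replicates 4 to 8, mean 3.56 ± 0.61 SD, n = 5). The Epi+ arrays gave 3.19, 3.16, 3.27, 2.24 and 3.37 (replicates 16 to 20, mean 3.05 ± 0.46). The Stat6-/- arrays gave -0.56, 1.04, -0.59, 0.11 and 0.43 (replicates 10 to 14, mean 0.09 ± 0.69). Every array with Stat6 stood above every Stat6-/- array, and the highest Stat6-/- array was still 1.20 below the lowest Epi+ array. The PBS arrays, at -0.02, 0.72, 0.70, -1.60 and -0.16 (replicates 22 to 26), overlapped the Stat6-/- arrays. The OVA arrays were the most spread, at -0.51, -2.21, -0.81, 0.19 and 1.10 (replicates 28 to 32, mean -0.45 ± 1.23). Fitted with the 5 reference preparations as a block, Stat6+/- exceeded Stat6-/- by 3.47 ± 0.43 (SE), 11.1-fold, and Epi+ exceeded Stat6-/- by 2.96 ± 0.43, 7.78-fold. Within single preparations, each of which holds 1 array of every group, the Epi+ difference ran from 1.20 to 3.86. Stat6+/- and Epi+ differed by 0.51 and their arrays overlapped. Spink1 therefore had 2 tiers in perfusate, with Stat6+/- and Epi+ above, and Stat6-/-, PBS and OVA below.

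**Figure D1:**
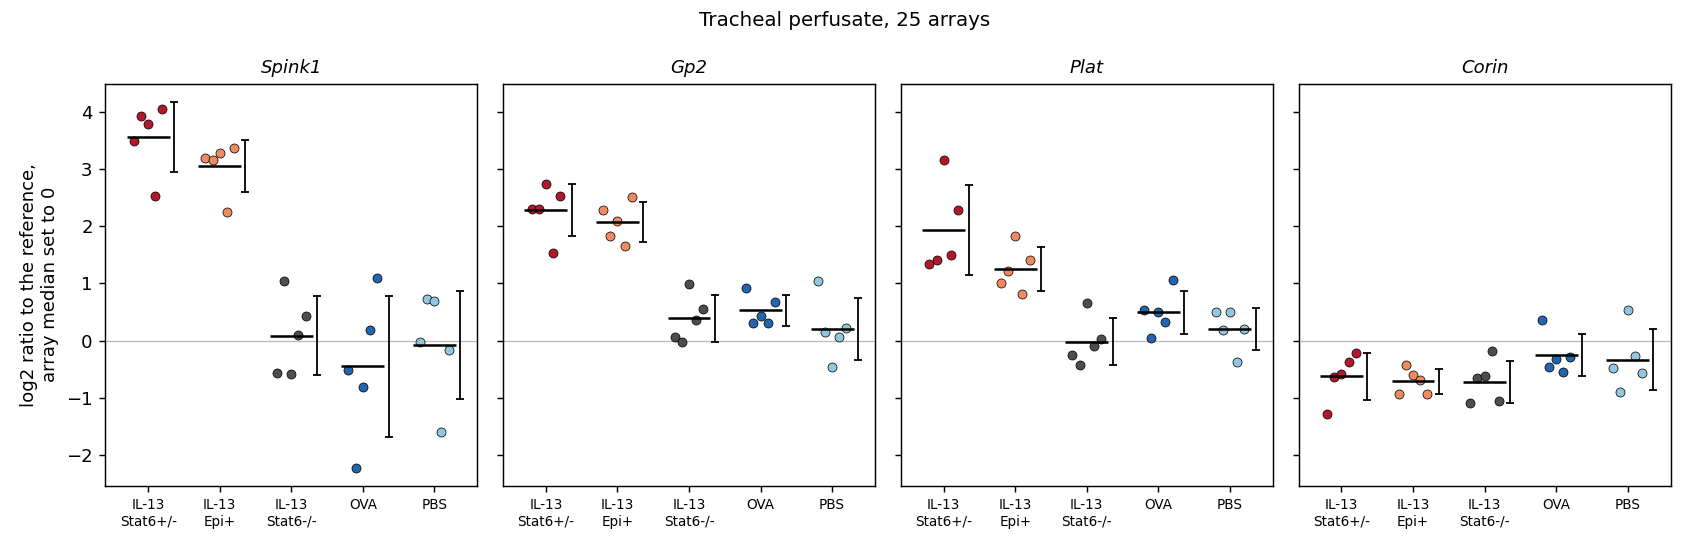
Log2 ratio to the reference (array median at 0) of Spink1, Gp2, Plat and Corin on the 25 tracheal perfusate arrays; each point is 1 array, the line is the group mean and the bar 1 SD to each side. Stat6+/- and Epi+ points stand clear of the Stat6-/- points for Spink1, Gp2 and Plat, and all 5 groups overlap for Corin.

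Gp2, the apical glycoprotein, followed the same order in perfusate over a narrower range. Its Stat6+/- values were 2.31, 2.30, 2.73, 1.53 and 2.52 (mean 2.28 ± 0.45). Epi+ arrays had 2.27, 1.83, 2.09, 1.65 and 2.52 (mean 2.07 ± 0.35). In Stat6-/- they were 0.07, -0.02, 0.99, 0.36 and 0.55 (mean 0.39 ± 0.41). No Stat6-/- array reached an array with Stat6, and Stat6+/- and Epi+ could not be separated. OVA values of 0.92, 0.32, 0.42, 0.31 and 0.67 and PBS values of 1.04, 0.15, -0.45, 0.06 and 0.22 lay in the range of the Stat6-/- arrays, apart from PBS replicates 22 and 24. The Stat6+/- minus Stat6-/- difference was 1.89 ± 0.23, 3.70-fold, and the Epi+ difference was 1.68 ± 0.23, 3.20-fold. Each of the 5 preparations gave an Epi+ difference between 1.10 and 2.21.

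Plat, the plasminogen activator, was highest in Stat6+/- perfusate and intermediate in Epi+. Stat6+/- arrays read 1.35, 1.40, 3.16, 1.49 and 2.29 (mean 1.94 ± 0.78). Epi+ arrays read 1.00, 1.21, 1.82, 0.82 and 1.40 (mean 1.25 ± 0.39). Stat6-/- arrays read -0.25, -0.42, 0.66, -0.09 and 0.02 (mean -0.02 ± 0.41). The 2 groups with Stat6 overlapped each other and both stood above Stat6-/-, for Epi+ by a gap of only 0.16 between the nearest arrays. PBS arrays were at 0.50, 0.19, 0.50, -0.38 and 0.20. OVA arrays were at 0.53, 0.05, 0.50, 0.32 and 1.07, and the highest of them lay inside the Epi+ range. The difference from Stat6-/- was 1.95 ± 0.21 (3.87-fold) in Stat6+/- and 1.27 ± 0.21 (2.41-fold) in Epi+, and the latter varied little between preparations, from 1.16 to 1.38.

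Corin did not share this pattern in perfusate. Its Stat6+/- values were -1.29, -0.63, -0.58, -0.37 and -0.22 (mean -0.62 ± 0.41). Stat6-/- values were -1.09, -0.64, -0.62, -0.18 and -1.06 (mean -0.72 ± 0.37). In Epi+ they were -0.93, -0.42, -0.60, -0.69 and -0.92 (mean -0.71 ± 0.22). All 3 IL-13 groups overlapped throughout, with a Stat6+/- difference of 0.10 ± 0.25 and an Epi+ difference of 0.01 ± 0.25. OVA arrays had 0.36, -0.46, -0.32, -0.55 and -0.28, and PBS arrays had -0.47, -0.89, 0.53, -0.27 and -0.56. So 3 of 4 members had perfusate groups that did not overlap in either Stat6 comparison, where 1.02% of all probes were higher without overlap in Stat6+/- and 0.46% in Epi+; nothing is read from these counts, because the members were picked on them.

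In whole lung the members divided differently, and Corin was the clearest. Stat6+/- lungs gave 4.36, 6.13, 4.27, 4.81 and 3.82 (replicates 1, 3, 4, 5 and 6, mean 4.68 ± 0.88). Epi+ lungs gave 2.36, 3.48, 4.36, 3.00 and 2.96 (replicates 1, 2, 3, 4 and 6, mean 3.23 ± 0.75). Stat6-/- lungs gave 0.94, -0.28, 0.35, 0.32 and 0.13 (replicates 1, 2, 4, 5 and 6, mean 0.29 ± 0.44). The nearest arrays with and without Stat6 were 2.88 apart for Stat6+/- and 1.42 apart for Epi+, while Stat6+/- and Epi+ overlapped. With the reference pool as a block, Stat6+/- exceeded Stat6-/- by 4.39 ± 0.38, 20.9-fold, and Epi+ did by 3.09 ± 0.38, 8.49-fold. The Epi+ difference was 2.91 within pool 3 and 3.20 within pool 4.

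Gp2 was also higher in lung with Stat6, with 1 missing value in each IL-13 group and more spread. Stat6+/- lungs gave 2.33, 3.23, 8.26 and 5.35 (replicates 1, 4, 5 and 6, mean 4.79 ± 2.64, n = 4). Epi+ lungs gave 4.46, 5.39, 4.75 and 1.99 (replicates 1, 2, 4 and 6, mean 4.15 ± 1.49, n = 4). Stat6-/- lungs gave 1.42, 1.13, -0.01 and -1.09 (replicates 1, 2, 4 and 5, mean 0.36 ± 1.15, n = 4). The groups with Stat6 stood above Stat6-/- without overlap, by 4.43 ± 1.24 (21.6-fold) in Stat6+/- and 3.65 ± 1.27 (12.5-fold) in Epi+. Single arrays moved these values: dropping Stat6+/- replicate 5 gave 3.01, dropping replicate 1 gave 5.26 and dropping replicate 4 gave 5.13, and the Epi+ value became 4.66 when Epi+ replicate 6 was dropped. Within pool 3 the Epi+ difference was 4.31, and within pool 4 it was 1.83 and rests on 1 Epi+ array. Gp2 and Corin were thus 2 of 3 members fitted in lung that did not overlap Stat6-/-, where 3.3% of probes were higher without overlap in Stat6+/- and 0.851% in Epi+, and again nothing is read from the count.

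Plat showed no such separation in lung. Stat6+/- arrays were at 0.00, 0.99, 0.60, 0.28 and -0.74 (mean 0.23 ± 0.66). Stat6-/- arrays were at -0.09, -0.67, -0.18, 0.45 and 0.27 (mean -0.04 ± 0.44). Epi+ arrays were at -0.76, -0.55, 0.16, -0.38 and -0.41 (mean -0.39 ± 0.34). All 3 groups overlapped, with differences of 0.27 ± 0.27 for Stat6+/- and -0.24 ± 0.28 for Epi+. Spink1 had too few lung values for the fit. Its Stat6+/- lungs gave -0.00, 1.78, 1.11 and 1.02 (replicates 1, 3, 4 and 6), its Epi+ lungs gave 0.81, 0.27 and 0.79 (replicates 1 to 3), and its Stat6-/- lungs gave 1.08 and 3.11 (replicates 4 and 6). Both Stat6-/- values exceeded all 3 Epi+ values, the opposite order to perfusate, and the Stat6+/- and Stat6-/- values overlapped. Higher ratios with epithelial Stat6 were thus present in both tissues for Gp2, in perfusate for Spink1 and Plat, and in lung for Corin; no such separation was seen for Plat in lung or Corin in perfusate, and lung Spink1 rests on 2 Stat6-/- values. The difference between tissues was not tested.

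**Figure D2:**
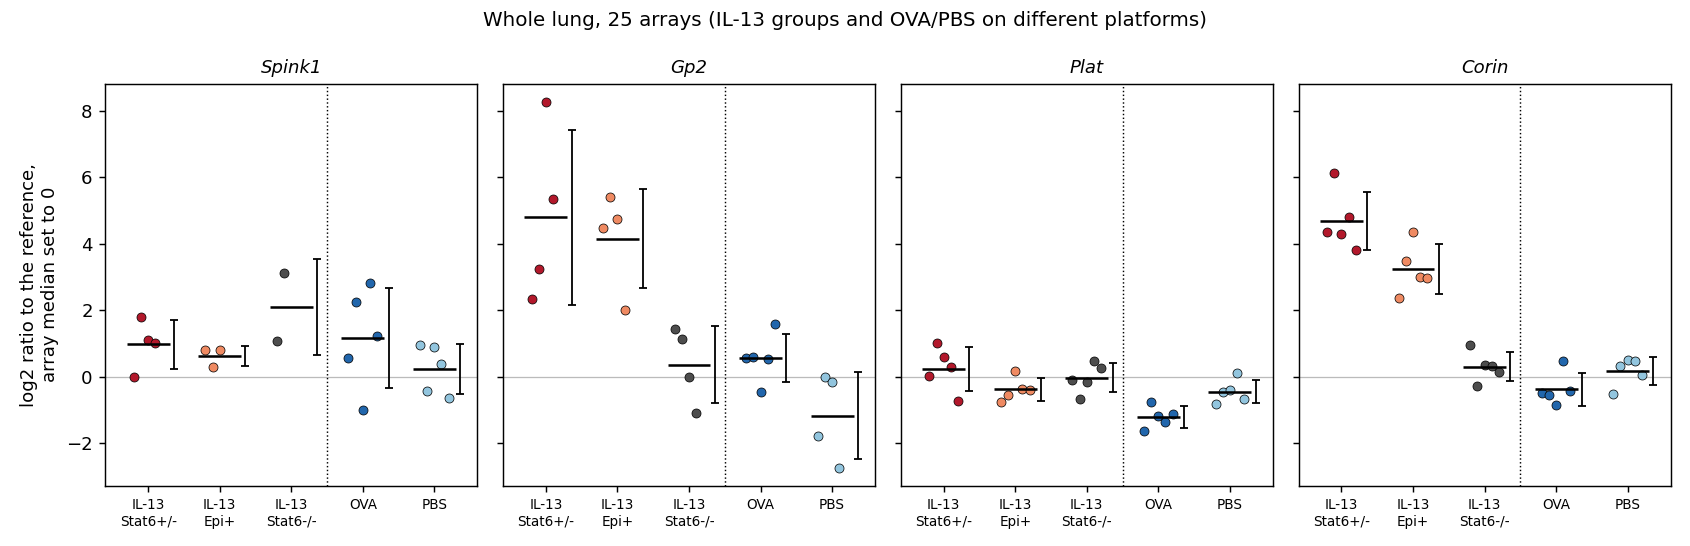
Log2 ratio to the reference (array median at 0) of the 4 genes on the 25 whole lung arrays, with the 3 IL-13 groups left of the dotted line and OVA and PBS, on the smaller platform with another reference pool, right of it; points are arrays, lines group means and bars 1 SD to each side. Gp2 and Corin stand above Stat6-/- in Stat6+/- and Epi+ lungs, and Plat and Spink1 do not.

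The second question was which of the 4 genes also answered to ovalbumin, an allergen. None of the 4 passed the test in either tissue. In perfusate 0 of 4 were called against 0.237% of 16874 probes (limma, Benjamini-Hochberg adjusted p under 0.05 over all probes), and 0 of 4 were under 0.05 before adjustment, where 1545 probes were. In lung 0 of 4 were called against 1.75% of 17047 probes, and 2 of 4, Gp2 and Plat, were under 0.05 before adjustment, as were 2696 probes. OVA and PBS arrays overlapped for all 4 genes in both tissues, while 2.2% of all probes in perfusate and 7.7% in lung had groups without overlap in either direction.

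Spink1 in perfusate was -0.38 ± 0.43 in OVA relative to PBS, with a 95% interval of -1.27 to 0.52 (limma, adjusted p = 0.870). Within preparations the OVA difference ran from -1.51 to 1.26 and was above 0 in 1 of 5. In lung OVA arrays read 0.56, 2.25, -1.02, 2.80 and 1.21 (replicates 1, 2, 4, 5 and 6) and PBS arrays 0.96, -0.44, 0.89, 0.36 and -0.64 (replicates 1 to 5). That difference of 0.93 ± 0.67 had an interval of -0.54 to 2.40 (limma, adjusted p = 0.528), and 3 of 5 OVA arrays exceeded every PBS array.

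Gp2 in perfusate differed by 0.32 ± 0.23 between OVA and PBS, with an interval of -0.16 to 0.80 (limma, adjusted p = 0.749), above 0 in 4 of 5 preparations. Its lung values under OVA were 0.57, 0.59, -0.46, 0.51 and 1.59. Lung PBS values were -1.80, -0.00, -0.16 and -2.74 (replicates 2 to 5, with none for replicate 1). The lung difference of 1.73 ± 0.61 had an unadjusted p of 0.0181 and an adjusted p of 0.206 (limma), and its interval ran from 0.37 to 3.10. In 4 of 5 OVA lungs Gp2 exceeded every PBS lung, and OVA replicate 4 lay below 2 of the 4 PBS values.

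Plat in perfusate differed by 0.29 ± 0.21, with an interval of -0.15 to 0.73 (limma, adjusted p = 0.756), and was above 0 in 4 of 5 preparations. In lung it was lower under OVA: the arrays read -1.63, -0.76, -1.19, -1.38 and -1.13. PBS lungs read -0.84, -0.46, -0.42, 0.10 and -0.67. The difference was -0.76 ± 0.26 (interval -1.32 to -0.20), with an unadjusted p of 0.0129 and an adjusted p of 0.179 (limma). OVA replicate 2 was the only OVA lung that lay within the PBS range. Markers of endothelium, a known source of tissue plasminogen activator, had a mean of -1.29 to -0.85 over 13 genes in the OVA lungs and of -0.36 to 0.05 in the PBS lungs, with 0 of 13 called; their part in the Plat value was not tested.

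Corin in perfusate differed by 0.08 ± 0.25 (interval -0.45 to 0.61; limma, adjusted p = 0.959), and this sign turned without OVA replicate 28, at -0.16, or without PBS replicate 23, at -0.09. OVA lungs had -0.50, -0.57, -0.85, 0.47 and -0.44. PBS lungs had -0.52, 0.33, 0.49, 0.48 and 0.03. The lung difference was -0.54 ± 0.31, with an interval of -1.22 to 0.14 (limma, adjusted p = 0.421). The same lungs had cardiac muscle markers at a mean of -1.98 to -1.07 over 14 genes under OVA and -1.08 to -0.81 under PBS, with 0 of 14 called; Corin is known from heart muscle, and the part of these markers in its value was not tested.

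**Figure D3:**
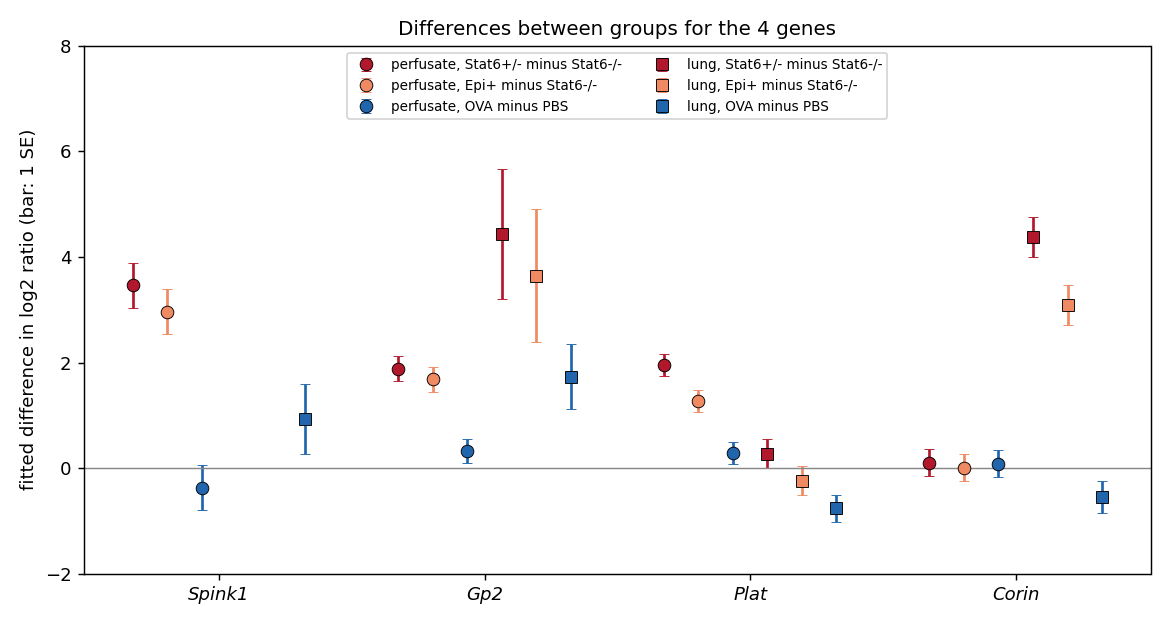
Fitted difference in log2 ratio (vertical axis, bars 1 SE to each side) for each gene in 6 comparisons; circles are tracheal perfusate and squares whole lung, and Spink1 has no fitted lung Stat6 difference. The OVA minus PBS points lie between -0.76 and 1.73, and the Epi+ minus Stat6-/- points reach 2.96 for Spink1 in perfusate and 3.65 for Gp2 in lung.

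The arrays did register ovalbumin in secretory cell genes. Clca1, a secreted regulator of chloride channels made by goblet cells, was 3.39 ± 0.31 higher in OVA than in PBS perfusate (limma, adjusted p = 1.98e-05) and 6.13 ± 0.47 higher in lung (limma, adjusted p = 0.000502). Muc5ac, a gel-forming mucin, rose by 2.81 ± 0.32 in perfusate (adjusted p = 0.000196) and by 4.00 ± 0.57 in lung (limma, adjusted p = 0.0100). Of the goblet cell markers, 3 of 13 rose and 0 fell in OVA perfusate, with a median difference of 0.69 against -0.01 over all probes, and 6 of 13 rose and 0 fell in OVA lung, with a median of 1.71 against 0.03. The perfusate calls of Clca1 and Muc5ac were lost in a fit of only these 2 groups (adjusted p = 0.140 and 0.157). Clca1 in OVA perfusate, at 1.87 to 2.67, overlapped Stat6+/- perfusate, at 0.73 to 3.18, and Epi+ perfusate, at 1.11 to 2.19. The Spink1 and Gp2 arrays under OVA lay below every Stat6+/- and Epi+ array of perfusate, at -2.21 to 1.10 for Spink1 and 0.31 to 0.92 for Gp2. Whether the response of Clca1 differs from that of the members was not tested. Other markers also differed in OVA lung. Macrophage markers had a mean of 1.99 to 2.90 over 16 genes in OVA lungs and 0.04 to 0.85 in PBS lungs, with 10 of 16 called higher. Eosinophil, mast cell and basophil markers were at 1.29 to 1.66 against -0.09 to 0.09 (3 of 15 called higher), T and B lymphocyte markers at 0.06 to 0.84 against -1.09 to -0.19 (3 of 14 higher), and club cell markers at -0.73 to -0.35 against -0.10 to 0.59 (2 of 11 lower). In OVA perfusate 3 of 15 eosinophil, mast cell and basophil markers and 1 of 15 macrophage markers were called higher, and 1 of 11 club cell markers lower. The part of these markers in the members' OVA values was not tested.

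**Figure D4:**
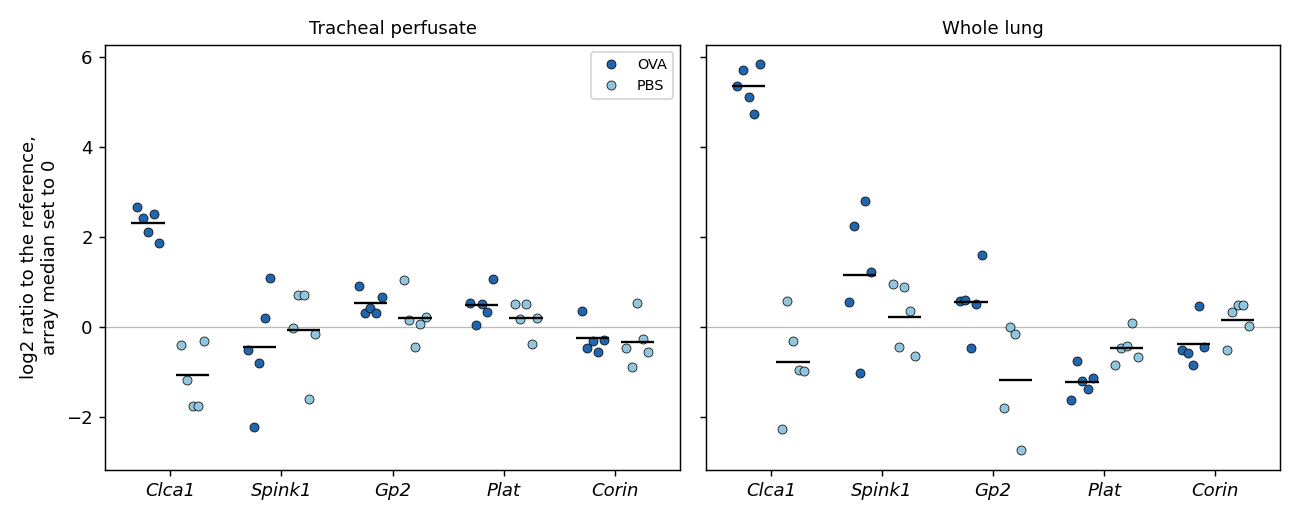
Log2 ratio to the reference (array median at 0) of Clca1 and the 4 genes on OVA and PBS arrays of tracheal perfusate (left) and whole lung (right); points are arrays and lines group means. Clca1 separates OVA from PBS in both tissues, and all 4 members overlap.

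Other genes of these pathways were tested list by list. The plasminogen system (activators, receptors, inhibitors and the tissue factor pathway) had 17 measured genes in perfusate, where Stat6+/- against Stat6-/- called 3.14% of all probes and Epi+ against Stat6-/- called 0.486%. Plaur, the receptor of urokinase, rose by 1.45 ± 0.28 in Stat6+/- (limma, adjusted p = 0.0053), and Serpina5, which inhibits activated protein C and plasminogen activators, fell by 0.65 on the log2 scale (adjusted p = 0.0291). Neither gene was called in Epi+, where 0 of 17 passed and Plaur differed by 0.10 ± 0.28. The Plaur and Serpina5 calls were lost without the 3 Stat6-/- arrays of low Y-linked signal (adjusted p = 0.0972 and 0.139), when the other 3 perfusate groups were dropped (0.0923 and 0.107) and with no reference block (0.0927 and 0.248). The Serpina5 call was also lost on deposited values (0.457), without preparation 1.3 (0.115) and without any 1 of Stat6+/- replicates 4, 6 and 8 and Stat6-/- replicates 10, 13 and 14 (0.0618 to 0.104). The median difference of the list was -0.11 in Stat6+/- and -0.01 in Epi+, against -0.02 and -0.02 over all probes. In OVA perfusate 0 of 17 passed, with a median of -0.20.

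In lung, 12 plasminogen genes were fitted in the IL-13 groups, where Stat6+/- called 4.83% of probes and Epi+ 0.0745%. F3, tissue factor, rose by 1.49 ± 0.27 in Stat6+/- (limma, adjusted p = 0.0064), a call lost without the 2 Stat6-/- lungs of low Y-linked signal (adjusted p = 0.0543) and on deposited values without centring (0.100), and 0 of 12 passed in Epi+. In OVA lung 1 of 15 passed: Serpinb2, plasminogen activator inhibitor type 2, rose by 3.18 ± 0.48 (limma, adjusted p = 0.0111), while it differed by 0.82 ± 0.36 in OVA perfusate (adjusted p = 0.493). The medians were 0.31, 0.11 and 0.23 in these 3 lung comparisons.

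Kazal-type inhibitors, trypsins and their targets, the relatives and substrates of Spink1, had 5 to 7 measured genes, and 0 passed in any of the 6 comparisons. Those comparisons called 0.0745% to 4.83% of all probes, so little can be read from 0 calls in so short a list. Markers of the exocrine pancreas, the tissue where Spink1 and Gp2 are best known, also had 0 calls in all 6, with 14 genes measured in perfusate and 7 or 13 in lung. Their mean on the perfusate arrays was -0.53 to 0.21 in Stat6+/-, -0.74 to 0.20 in Epi+ and -0.58 to 0.16 in Stat6-/-, so these groups overlapped for the pancreas markers. The membrane serine proteases, their inhibitors and the natriuretic peptide system, the surroundings of Corin, had 18 to 20 measured genes. Npr1, the receptor of atrial natriuretic peptide, rose by 0.75 ± 0.18 in Stat6+/- perfusate (limma, adjusted p = 0.0289), and Npr3, the clearance receptor, fell by 1.43 on the log2 scale in Stat6+/- lung (adjusted p = 0.0164). The Npr1 call was lost under 12 of 20 alternatives (adjusted p = 0.0515 to 0.201): on deposited values, with no reference block, with only the 2 groups, without the arrays of low Y-linked signal and without any 1 of Stat6+/- replicates 4, 6, 7 and 8 and Stat6-/- replicates 10, 11, 13 and 14. The Npr3 call was also lost with no reference block (0.0896). Without the Stat6-/- arrays of low Y-linked signal 0 of the list passed in either tissue, and 0 passed in the Epi+ and OVA comparisons.

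Zona pellucida domain, apical and M cell glycoproteins, the kin and company of Gp2, moved in both directions. In Stat6+/- perfusate 1 of 23 rose and 3 fell, with a median of -0.08, where 3.14% of all probes were called. Dmbt1, a mucosal scavenger glycoprotein, fell by 1.76 (limma, adjusted p = 0.000889). Umod, the neighbour of Gp2, fell by 0.71 (limma, adjusted p = 0.0032), and Tnfaip2, an M cell protein, fell by 1.75 on the log2 scale (adjusted p = 0.0032). The 1 that rose was Muc4, a membrane mucin, by 0.53 ± 0.13 (limma, adjusted p = 0.0261). The Muc4 call was lost under 14 of 20 alternatives (adjusted p = 0.0511 to 0.379), among them without the Stat6-/- arrays of low Y-linked signal (0.199) and without any 1 of Stat6+/- replicates 4, 6 and 8 and Stat6-/- replicates 10, 12, 13 and 14. Tnfaip2 was also lower in Epi+, by -1.56 ± 0.31 (limma, adjusted p = 0.0285), and it was the only 1 of 23. That call too was lost under 14 of 20 alternatives (adjusted p = 0.0574 to 0.383): without the Stat6-/- arrays of low Y-linked signal (0.0574), on deposited values (0.0711), with scaling (0.0655), quantile normalization (0.149), no reference block (0.131) or only the 2 groups (0.383), without preparation 1.3 (0.111), and without any 1 of Epi+ replicates 16, 17, 18 and 20 and Stat6-/- replicates 10, 13 and 14 (0.0683 to 0.107). The Umod and Tnfaip2 calls in Stat6+/- perfusate were lost with only the 2 groups (0.104 each), and the Umod call without the Stat6-/- arrays of low Y-linked signal (0.111) or on deposited values (0.399). In Stat6+/- lung 3 of 20 rose and 2 fell, with a median of 0.46, where 4.83% of all probes were called. Pigr, which carries IgA across epithelium, rose by 3.72 ± 0.21 (limma, adjusted p = 9.89e-07), Muc4 by 1.78 ± 0.21 (adjusted p = 0.000364), and Sftpd, a surfactant lectin, by 1.63 ± 0.25 (adjusted p = 0.0022). Eng fell by 1.55 (limma, adjusted p = 0.0026) and Tgfbr3 by 1.19 on the log2 scale (adjusted p = 0.0036), both coreceptors of transforming growth factor beta. The Sftpd call was lost on deposited values (0.0681) and the Tgfbr3 call with no reference block (0.0855). In the same Stat6+/- lungs endothelial markers were at -1.05 to -0.22 over 13 genes, against -0.18 to 0.13 in Stat6-/-, with 4 of 13 called lower; their part in the Eng and Tgfbr3 values was not tested. None of the 20 passed in Epi+ lung, where Pigr differed by 1.22 ± 0.21 (limma, adjusted p = 0.0732).

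Umod and Gp2 sit side by side on chromosome 7. Under OVA both had higher mean ratios in lung, where only Umod was called, and in perfusate they differed in sign. Umod rose by 2.72 ± 0.49 (limma, adjusted p = 0.0232), Gp2 differed by 1.73 ± 0.61 (adjusted p = 0.206), and Pigr rose by 1.23 ± 0.23 (adjusted p = 0.0272). So 2 of 22 genes of the list passed, against 1.75% of all probes. The Umod call was lost without OVA replicate 1 (adjusted p = 0.0585) or PBS replicates 2, 4 or 5 (0.0653, 0.0637 and 0.0628), and the Pigr call without any 1 of OVA replicates 2, 4 and 6 and PBS replicates 1, 3, 4 and 5 (0.0541 to 0.0704). The Pigr call was also lost on deposited values (0.286), with scaling (0.480) and with quantile normalization, where Pigr was 0.48 (0.501). In OVA perfusate 0 of 23 passed. There Umod differed by -0.32 ± 0.13 (limma, adjusted p = 0.408) and Gp2 by 0.32 ± 0.23 (limma, adjusted p = 0.749). In Stat6+/- perfusate Gp2 was higher and Umod lower than in Stat6-/-, as given above.

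Several lists of cell markers differed between the same groups as the members. The mean of 13 goblet cell markers was 0.62 to 1.40 on Stat6+/- perfusate arrays and 0.54 to 1.20 in Epi+. It was -0.53 to 0.01 in Stat6-/- and 0.72 to 1.41 in OVA perfusate. Goblet markers were called higher for 6 of 13 in Stat6+/- perfusate and 4 of 13 in Epi+, and for 7 of 11 and 6 of 11 in lung, with 0 lower in each. The mean of 15 general epithelial markers overlapped between groups in perfusate, at -0.39 to 0.49 in Stat6+/-, -0.40 to 0.09 in Epi+ and -0.47 to 0.12 in Stat6-/-. In lung it was 0.25 to 1.23 in Stat6+/-, -0.23 to 0.38 in Epi+ and -0.22 to 0.31 in Stat6-/-, with 0 of 15 called in either comparison. Club cell markers were lower in perfusate, at -1.27 to -0.41 in Stat6+/- and -0.52 to 0.05 in Epi+ against 0.09 to 0.43 in Stat6-/-, with 6 of 11 and 3 of 11 called lower. In lung 5 of 11 club cell markers were called lower in Stat6+/- and 0 of 11 in Epi+. Ciliated cell markers in perfusate were at 0.14 to 0.70 in Stat6+/-, 0.18 to 0.72 in Epi+ and -0.25 to 0.33 in Stat6-/-, with 3 of 11 and 1 of 11 called higher. Macrophage markers were at 2.53 to 3.89 in Stat6+/- lung, against 0.07 to 0.66 in Epi+ and -0.22 to 0.26 in Stat6-/-. Of these, 12 of 15 were called higher in Stat6+/- and 0 of 15 in Epi+. Cardiac markers were lower in Stat6+/- lung, at -1.34 to -0.40 against -0.49 to 0.58 in Stat6-/-, with 5 of 14 called lower. In Epi+ lung, cardiac markers were at -0.60 to 0.69 with 0 of 14 called. The part of cell composition in the members' differences was not tested, and these values are no test of it.

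Genes with the most similar profiles were looked up across the 25 perfusate arrays after the mean of each reference preparation was removed. The arrays share groups and references, so the coefficients are a description. Spink1 was closest to Ift172 (r = 0.92) and Serpinb12 (0.90), followed by Vrk2, Tubb2b and Meiob (0.88 each). Gp2 was closest to Meiob (0.98), then to Plat (0.91), Ift172 (0.89), Serpinb12 (0.88) and Spink1 (0.87). Plat was closest to Cidea (0.93), Ezr and Alox15 (0.92 each), Gp2 (0.91) and Fhl2 (0.90). Corin had weaker matches, Fam110a (0.81), Ivd (0.76), Ybx2 (0.75), Nts (0.74 over 23 arrays) and Chka (0.72), and its r with the other members was -0.10 to -0.30. Spink1 and Plat had r = 0.85. Over the 15 lung IL-13 arrays Corin was closest to Nadsyn1 (0.97), Agr2 (0.96), Reg3g (0.95), Clca1 (0.95) and Kcnj15 (0.95). Gp2 was closest there, over 12 arrays, to Bhlha15 (0.89), Tex26, Clca3b (0.88 each), Slc16a6 and Hnrnpa3 (0.86 each), and its r with Corin was 0.80. Plat was closest in lung to Setdb1 (0.92), Snx18 and Rcor2 (0.89 each), Spic (0.87) and Sox6 (0.86), over 12 to 15 arrays. Matches as high as those of Gp2 thus also occurred for a member without a Stat6 separation in lung. The lung lookup was added after the values were seen.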

How the data were processed

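The authors deposited log2 ratios for 50 arrays of 10 groups, 40 on a platform of 19152 spots and 10 on one of 18240. All values are log2 of ratios with 3 decimals (tolerance 0.0002), and deposited array medians were -0.96 to 0.30; how they were scanned and normalized the labels leave unstated. The deposited ratio's direction is not stated; the lowest correlation between 2 arrays of the larger platform was -0.25. Array medians were subtracted and spots of 1 accession averaged, giving 18273 and 18057 probes. On the 2 platforms 15418 and 14857 spots had 1 gene symbol in GEO's annotation, 7 and 6 several, and 3727 and 3377 were unlisted; a gene with several probes was not merged.

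limma 3.58.1 in R 4.3.3 was fitted to probes with at least 3 values in every group: 25 perfusate arrays with 5 reference preparations as a block, 15 lung IL-13 arrays with the reference pool as a block, and 10 lung OVA and PBS arrays. Missing values were left out of a probe's fit, not imputed. Calls used a Benjamini-Hochberg adjusted p under 0.05 over all probes, and the code was tested on simulated data. Intervals are 95% intervals of the moderated fit. Named were the 4 members, up to 4 genes of smallest adjusted p per list and comparison (with Tgfbr3, and values of a named gene in other comparisons, added after their values were seen), Il13 and Stat6, and the 5 most similar genes per member. The members and all gene lists were chosen with earlier results of these data known. Alternatives were deposited values without centring, scaling, quantile normalization, stricter and looser filters on missing values, array weights, no reference block, 2 groups only, a replicate block in lung, and each array left out.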

Additional observations from a re-analysis of the deposited data

Results flagged for a closer look

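Spink1 on Epi+ perfusate replicate 19 was 2.24, the lowest of its group and far from the other 4, which lay between 3.16 and 3.37. Corin on OVA perfusate replicate 28 was 0.36, the highest of its group and far from the other 4, which lay between -0.55 and -0.28. With 38 groups of 4 or 5 arrays checked, chance gives about 1 such array in 20 groups if arrays are independent, which arrays on 1 reference preparation may not be. Epi+ replicate 19 was hybridised against preparation 1.1, and for Spink1 the array on that preparation was also the lowest of its group in Stat6+/- (replicate 7, 2.52), PBS (replicate 25, -1.60) and OVA (replicate 29, -2.21), and the highest in Stat6-/- (replicate 11, 1.04).

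The mean difference of Spink1 had opposite signs in the 2 tissues. Stat6+/- minus Stat6-/- was 3.47 in perfusate (5 arrays against 5) and -1.12 in lung (4 against 2), and Epi+ minus Stat6-/- was 2.96 in perfusate and -1.47 in lung (3 against 2). The lung values rest on 2 Stat6-/- arrays, at 1.08 and 3.11. The Stat6+/- lungs, at -0.00 to 1.78, overlapped them, and within pool 3 the Stat6+/- difference was -0.02. The difference between tissues was not tested.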

How the results depend on the processing

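No OVA result of a member passed the threshold under any alternative run, with adjusted p from 0.0957 to 0.488 for Plat, 0.108 to 0.543 for Gp2, 0.0928 to 0.673 for Corin and 0.207 to 0.771 for Spink1 in lung, and at or above 0.494 in perfusate. Perfusate Corin turned to -0.11 without reference preparation 1.3, and ran from -0.16 to 0.29 with 1 array left out. Left-out ranges for OVA minus PBS were -0.70 to -0.09 for Spink1, 0.10 to 0.51 for Gp2 and 0.18 to 0.46 for Plat in perfusate, and 0.52 to 1.48, 1.21 to 2.12, -0.87 to -0.62 and, for Corin, -0.75 to -0.42 in lung. The members were picked on their Stat6 values, so the ranges of these over every fit that could be made are only a description. Stat6+/- minus Stat6-/- was 3.25 to 4.03 for Spink1, 1.72 to 2.06 for Gp2 and 1.74 to 2.15 for Plat in perfusate. In lung it was 3.01 to 5.26 for Gp2 and 3.28 to 4.55 for Corin. Epi+ minus Stat6-/- was 2.74 to 3.52 for Spink1, 1.51 to 1.85 for Gp2 and 1.21 to 1.32 for Plat in perfusate. In lung it was 3.29 to 4.66 for Gp2 and 2.69 to 3.32 for Corin. Perfusate Corin ran from -0.08 to 0.27 in Stat6+/- and from -0.17 to 0.18 in Epi+. Lung Plat ran from -0.10 to 0.46 in Stat6+/- and from -0.44 to -0.13 in Epi+. Lung Gp2 could not be fitted without the Stat6-/- lungs of low Y-linked signal, an alternative added after seeing the data, since 2 values were left.

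Scaling moved lung Stat6+/- Corin to 3.28. The counts of called probes depended on the processing; the cause was not tested. Perfusate OVA had 40 calls, and 15 on deposited values, 66 with scaling, 19 with no reference block, 0 with only the 2 groups, 25 without preparation 1.3 and 17 to 34 with 1 array left out. Perfusate Stat6+/- had 529, and 128 on deposited values, 989 with array weights, 270 with no block, 69 with only the 2 groups, 183 without the arrays of low Y-linked signal and 347 to 539 with 1 array left out. Perfusate Epi+ had 82, and 17 on deposited values, 51 with scaling, 170 with array weights, 31 with no block, 1 with only the 2 groups, 35 without preparation 1.3, 33 without the arrays of low Y-linked signal and 42 to 92 with 1 array left out. Lung Stat6+/- had 778, and 284 on deposited values, 450 with scaling, 515 with quantile normalization, 391 with no block, 400 with only the 2 groups, 289 without the arrays of low Y-linked signal and 470 to 1066 left out. Lung Epi+ had 12, and 6 on deposited values, 4 without the arrays of low Y-linked signal and 7 to 13 left out. Lung OVA had 299, and 36 on deposited values, 796 with array weights and 105 to 308 left out. Calls higher against lower were 25 to 57 for perfusate Epi+ and 11 to 6 on deposited values, 520 to 258 for lung Stat6+/- and 102 to 182 on deposited values, and 256 to 43 for lung OVA, 35 to 1 on deposited values and 170 to 77 with quantile normalization. Lung replicate numbers recur between groups, and same-numbered arrays deviated from their group means with r from -0.60 to 0.43. The reference pool was not removed for these coefficients. In the IL-13 lungs r was 0.09 to 0.43 for arrays on the same pool and -0.60 to -0.19 for arrays on different pools. OVA and PBS lungs share 1 pool and had r from -0.18 to 0.01. Whether the numbers pair the arrays therefore cannot be told from these coefficients. The replicate block left 95 calls for lung Stat6+/-, 7 for Epi+ and 0 for OVA, and under it the named lung OVA calls were lost (adjusted p = 0.0568 for Clca1, 0.164 for Muc5ac, 0.187 for Serpinb2, 0.172 for Umod and 0.253 for Pigr), as were those of F3 (0.112), Npr3 (0.065), Eng (0.0989), Sftpd (0.0617) and Tgfbr3 (0.116) in Stat6+/- lung. Perfusate groups share no replicate numbers.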
